A study of Homo sapiens with 14 samples.

Results

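High-abc and High-Leu558 are 2 versions of the CFTR coding sequence that make the same protein and in which the codon of Leu558 no longer is the native UUA. The 5 High-abc libraries were set against the 2 High-Leu558 libraries, 7 of the 14 libraries of the series, all named by the construct in their titles. In High-Leu558 the title gives the change at Leu558 as UUA to CUC, and the construct is read here as the WT sequence with that codon changed. High-abc carries further synonymous codons, which the labels do not list, and its Leu558 codon is taken as replaced because another construct, WT-Leu558-in-High-abc, puts the native codon back. Which codon High-abc has at Leu558 is not given. If it is not CUC, the comparison also holds a codon difference at Leu558. The comparison therefore asks how ribosome footprint counts differ with the other High-abc codons when the native Leu558 codon is missing on both sides. To which sequence reads were mapped was not given, and the part of mapping in such differences was not tested. The remaining libraries are WT (5) and WT-Leu558-in-High-abc (2), which carry the native Leu558 codon in each background. The host in every library was HEK293, a line established from human embryonic kidney and grown without limit, made to overexpress the construct. Nothing in the labels tells whether replicates were grown apart or how long expression lasted. The p-values therefore cover only the scatter of these libraries, which may be technical.

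CFTR is a chloride channel of epithelia and belongs to the ATP-binding cassette family; its loss causes cystic fibrosis. Its chain runs from a first membrane domain through the first nucleotide-binding domain (NBD1), a regulatory region and a second membrane domain to NBD2, and NBD1 begins to fold while the ribosome is still translating it. Synonymous codons leave the protein sequence alone but are read by different tRNAs, so they can change how long a ribosome waits at a position. Ribosome profiling measures this by sequencing the mRNA fragments that ribosomes shield from nuclease, and a residue with many fragments is one where ribosomes were often found. The native CFTR gene spans 117480025 to 117668665 of chromosome 7 in GRCh38.p14. The constructs are expressed from elsewhere, so each position is a residue number counted along the 1480 residues of the chain.

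The 7 libraries held between 2463 (High-abc replicate 3) and 10757 (High-abc replicate 4) CFTR reads, and both High-Leu558 libraries lay near the upper end, at 10735 and 10157. An average residue thus held between 1.66 and 7.27 reads, and where no read was found the true share may still reach 0.122% in High-abc replicate 3 and 0.0279% in replicate 4 (3 reads of the total, counting error only). When every library was reduced to 2396 reads in residues 21 to 1460, High-abc replicate 2 had reads at 673 residues and the other High-abc libraries at 752 to 814; High-Leu558 replicates 1 and 2 had 820 and 753. High-abc replicate 2 also held 25.1% of its reads in its own 20 most covered residues, against 16.8% to 21.5% in the other 6 libraries, so its reads were the most concentrated.

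At Leu558 itself both groups held few reads. High-abc had 1, 3, 1, 2 and 2 reads there in replicates 1 to 5, which is 0.0297% ± 0.0154 of CFTR reads (SD, n = 5). High-Leu558 had 4 reads and 0 reads, or 0.0186% ± 0.0263 (SD, n = 2). WT, with the native codon, held 0.860% ± 0.287 (SD, n = 5). The 2 groups overlapped, and the log2 change of High-abc against High-Leu558 was 0.54 (SE 1.01, adjusted p = 0.981 by edgeR's quasi-likelihood test, Benjamini-Hochberg over 314 residues). By occupancy, the reads at a residue over the library's mean residue with 0.5 reads added, High-abc was 2.47 times as high as High-Leu558 (log2 difference 1.31, SE 1.58, exact two-sided permutation p = 0.381). With 5 against 2 libraries that test cannot give a p below 0.0952, and no difference at Leu558 was called, though with so few reads the standard errors leave changes of several-fold possible. The residue after it, 559, had 9 reads in the 5 High-abc libraries and 5 in High-Leu558, and its log2 change was 0.08 (SE 0.94; adjusted p = 0.997 in edgeR).

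The residue just before Leu558 set the constructs apart. Residue 557 held 5, 23, 6, 13 and 3 reads in High-abc replicates 1 to 5, or 0.0901%, 0.394%, 0.244%, 0.121% and 0.0299% of CFTR reads. Neither High-Leu558 library had a read there, so every High-abc library lay above both. The mean in High-abc, 0.176% ± 0.145 (SD, n = 5), was 6.11 times the High-Leu558 floor of 3 reads per library (0.0287%). That ratio leaves out the spread in High-abc, where replicate 5 lay close to the floor. It was the only 1 of the 314 tested residues, 0.318%, to be called, and no residue was called lower, 0% (edgeR adjusted p = 0.0469; DESeq2 adjusted p = 0.0250). The fitted log2 change of 7.02 (SE 1.71) depends on how zeros are handled and is no bound. By occupancy the residue ranked 108 of 1440 in High-abc.

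That call rests on few reads. Scaling by library totals instead of TMM factors gave an edgeR adjusted p of 0.0552 at residue 557. Without High-abc replicate 4 it was 0.101. Without High-Leu558 replicate 1 or 2 the residue also lost its call. A single library then stands for the construct, and its own spread cannot be estimated. The cause of the lost call was not tested. Without High-abc replicate 2 or 3 the residue no longer passed the filter on low counts, and no residue was called. Residue 557 thus entered the test only through High-abc, the group where it is high. With no filter on low counts it was also called (edgeR adjusted p = 0.0263). The libraries with the native codon give values of the same kind: residue 557 held 0.0356% ± 0.0212 in WT (SD, n = 5), and WT-Leu558-in-High-abc held 0.0906% ± 0.0258 (SD, n = 2).

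**Figure D1:**
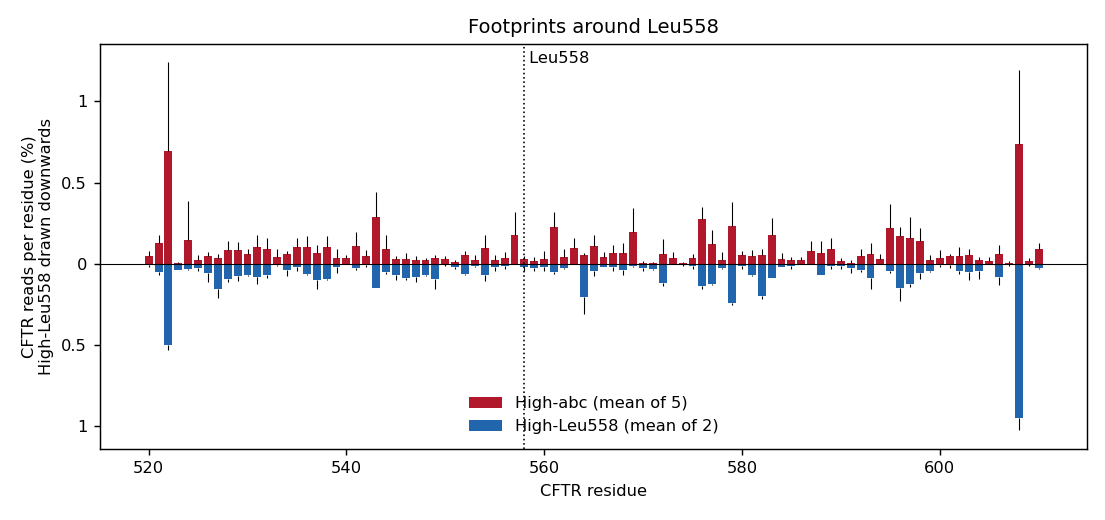
Mean percent of CFTR reads (vertical axis) at each residue from 520 to 610 (horizontal axis) in 5 High-abc libraries, drawn upwards, and 2 High-Leu558 libraries, drawn downwards; thin lines show 1 SD and the dotted line marks Leu558. High-abc has bars at residues 557, 561 and 569 with little or nothing opposite them, and High-Leu558 has taller bars at 527, 564 and 582, while the highest bars, at 522 and 608, appear in both.

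Residues after Leu558 and up to 595 followed among those with the lowest p-values, in both directions, although none was called. Lack of overlap between the groups, at these and other residues and windows, is given only as a description. With 5 against 2 libraries, even full separation cannot give an exact two-sided permutation p below 0.0952. Residues were picked for their low p, and the share of all tested residues without overlap is not given here. Residue 569 held 11, 26, 2, 16 and 9 reads in High-abc replicates 1 to 5, or 0.193% ± 0.149 (SD, n = 5), and 1 and 2 reads in High-Leu558, or 0.0145% ± 0.00734 (SD, n = 2). All High-abc libraries were above both High-Leu558 libraries, and the log2 change was 3.70 (SE 1.01; adjusted p = 0.0955 in edgeR); in a fit of these 2 groups alone it was called (edgeR adjusted p = 0.0413). Residue 561 held between 0.110% (replicate 5) and 0.325% (replicate 3) in High-abc, and 0.0373% and 0.0591% in High-Leu558. Again the groups did not overlap (log2 change 2.18, SE 0.78, edgeR adjusted p = 0.540). Residue 595 held between 0.0812% (replicate 3) and 0.400% (replicate 4) in High-abc against 0.0559% and 0.0394% in High-Leu558, without overlap (log2 change 2.29, SE 0.81, edgeR adjusted p = 0.540). Residue 535, on the other side of Leu558, had 38 reads over the High-abc libraries and 4 in High-Leu558, all in replicate 1 (log2 change 2.44, SE 1.06, edgeR adjusted p = 0.973).

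Neighbouring residues had the opposite sign. At residue 564 the High-abc libraries held 3, 2, 1, 8 and 6 reads and the High-Leu558 libraries 30 and 13. As shares these are 0.0526% ± 0.0159 (SD, n = 5) and 0.204% ± 0.107 (SD, n = 2), a level 3.87 times as high in High-Leu558, without overlap (log2 change -1.81, SE 0.68, edgeR adjusted p = 0.631). Residue 582 held 0.0509% ± 0.0414 in High-abc (SD, n = 5) and 0.201% ± 0.0192 in High-Leu558 (SD, n = 2), also without overlap (log2 change -1.78, SE 0.72, edgeR adjusted p = 0.860). Residue 527 held 14 reads in the 5 High-abc libraries and 33 in the 2 High-Leu558 libraries, or 0.0348% ± 0.0270 (SD, n = 5) and 0.157% ± 0.0548 (SD, n = 2), again apart (log2 change -1.98, SE 0.88, edgeR adjusted p = 0.981). These residues were picked for their low p, and 557 alone was called. Other tested residues of the stretch had changes of either sign, such as 0.86 at residue 568, 0.98 at 576, 0.94 at 583 and -0.79 at 572, each at an unadjusted edgeR p above 0.1.

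Outside NBD1 the named residues were 953 in the second membrane domain, 835 and 677 in the regulatory region and 278 in the first membrane domain. Residue 953 held 0.179% ± 0.140 in High-abc (SD, n = 5) and 0.0427% ± 0.0186 in High-Leu558 (SD, n = 2), with overlap (log2 change 2.05, SE 0.86, edgeR adjusted p = 0.943). Residue 835 was lower in every High-abc library, at 0.0409% ± 0.0426 (SD, n = 5) against 0.158% and 0.167%, and its log2 change was -1.68 (SE 0.83; adjusted p = 0.981 in edgeR). Residue 677 had a log2 change of -1.17 (SE 0.64) with overlap and residue 278 one of -1.09 (SE 0.63) without it, each at an edgeR adjusted p of 0.981.

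At an unadjusted p under 0.05, 13 of the 314 tested residues (4.14%) remained, 9 higher and 4 lower in High-abc. That share is below what this threshold passes when nothing differs, so the 13 are given as a description. Where they lay was uneven. The 3 NBD1 regions, residues 391 to 650, held 8 of the 13 among 63 tested residues (12.7%), all between residues 527 and 595, and the other 251 tested residues held 5 (1.99%). The NBD1 split was made after these values were seen, so the shares describe where the residues lie. With a term for the replicate number added to the fit, the called residues were not gathered in NBD1 and ran from 42 to 1227. That term pairs libraries by number, which 2 High-Leu558 libraries are too few to check. High-Leu558 replicates 1 and 2 were closest to High-abc replicates 4 and 5 (r = 0.79 and 0.66). With the High-abc library of their own number r was 0.50 and 0.39. The part of such pairing in these calls was not tested. The median size of the log2 change was 0.57 in NBD1 and 0.48 outside it, and 30.2% and 15.1% of tested residues had a log2 change above 1 in either direction. NBD1 residues held fewer reads, 11.7 per library on average against 16.3 outside; the part of depth in these shares was not tested.

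The same High-abc codons can be looked at in libraries that take no part in the comparison above. WT-Leu558-in-High-abc against WT also differs by the High-abc background, with the native Leu558 codon on both sides, and shares no library with High-abc against High-Leu558. Any effect of the changed codons on read mapping would enter both comparisons, and was not tested. By edgeR it called 0 of 314 residues (0%; 16 at an unadjusted p under 0.05). All 8 of the NBD1 residues above had the same sign there, and 4 of them had an unadjusted p under 0.05 there too. The log2 changes in the replaced and the native codon setting were -1.81 and -1.95 at residue 564, -1.78 and -1.90 at 582, and -1.98 and -1.87 at 527. They were 2.18 and 1.63 at residue 561, 3.70 and 2.01 at 569, 2.44 and 1.49 at 535, 2.29 and 0.77 at 595, and 7.02 and 1.31 at 557. In levels, residue 564 held 0.187% ± 0.0575 in WT (SD, n = 5). WT-Leu558-in-High-abc held 0.0416% ± 0.0384 there (SD, n = 2).

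None of the 5 residues outside NBD1 kept its sign. Residue 953 had a log2 change of 2.05 with the replaced codon and -1.83 with the native codon. Residue 1011 had 1.41 and -1.07, residue 1164 had 2.27 and -1.31, residue 32 had 2.36 and -0.53, and residue 835 had -1.68 and 0.57. Over all tested residues of NBD1, 33 of 63 had the same sign in both settings, and the log2 changes correlated at Pearson r = 0.38 and Spearman rho = 0.22. Outside NBD1, 96 of 251 had the same sign, with r = -0.34 and rho = -0.34. High-abc and WT have 5 libraries each and the other constructs 2. A difference between these sets of libraries would enter the 2 settings with opposite signs, which was not tested. The points are residues and no replicates, and both sets of changes come from a common fit and share its scaling and spread. Within the NBD1 alpha-subdomain (501 to 560) and the NBD1 last part (561 to 650) r was 0.58 over 15 residues and 0.55 over 30, and in each of the other 6 regions it lay between -0.45 and -0.29. Residues 557 and 570 had the largest changes and each rests on a group with 0 reads. Without them, a check added after seeing the data, NBD1 gave r = 0.31 and rho = 0.15 over 61 residues, the alpha-subdomain r = 0.60 and the last part r = 0.47. The likeness over all of NBD1 was thus weak.

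**Figure D2:**
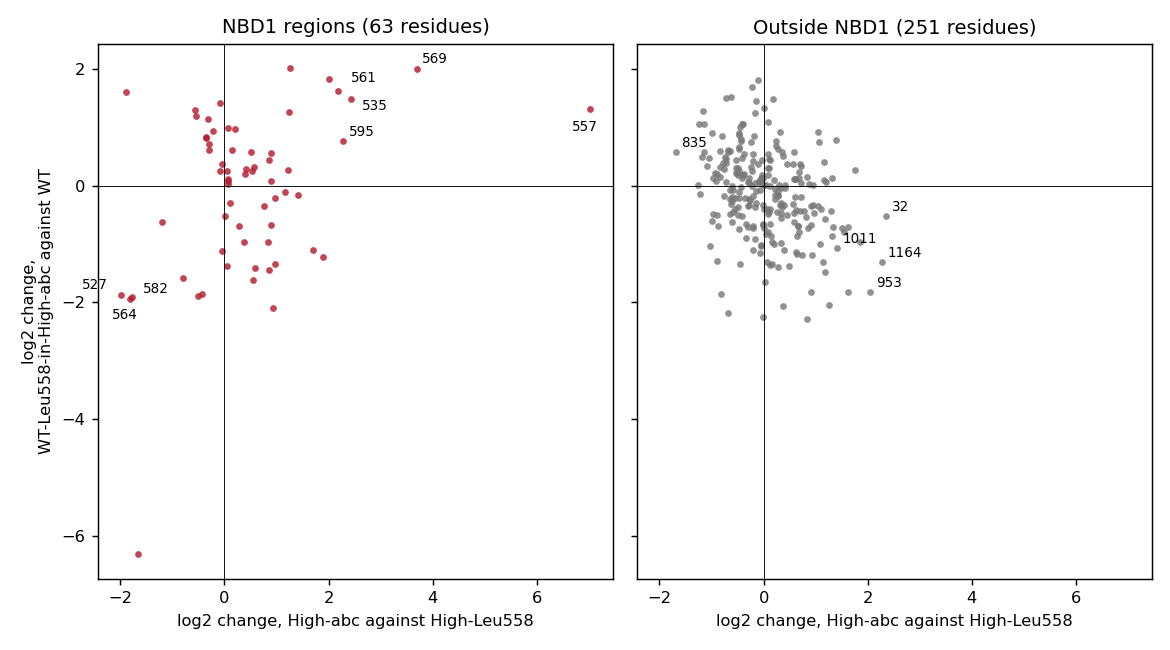
Log2 change of each of the 314 tested residues in High-abc against High-Leu558 (horizontal axis) and for WT-Leu558-in-High-abc over WT (vertical axis), for 63 NBD1 residues (left) and 251 other residues (right); numbers mark residues with an unadjusted p under 0.05 on the horizontal axis. The 8 marked NBD1 residues lie at the lower left or the upper right, and the 5 marked residues outside NBD1 at the upper left or the lower right.

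When the mean of both background effects was tested in a single edgeR contrast over all 14 libraries, a test chosen after seeing these values, 4 of 314 residues (1.27%) were called, 3 higher (0.955%) and 1 lower (0.318%), and all lay between residues 557 and 569. Residue 569 rose by 2.85 on the log2 scale (SE 0.63, edgeR adjusted p = 0.0122). Residue 557 rose by 4.16 (SE 0.98, edgeR adjusted p = 0.0148), a size that again depends on the zeros of High-Leu558. Residue 561 rose by 1.91 (SE 0.50, edgeR adjusted p = 0.0410). Residue 564 fell by 1.88 (SE 0.51, edgeR adjusted p = 0.0471). DESeq2 called the same 4. All 314 residues entered this test, but it uses the High-abc and High-Leu558 libraries of the first comparison, so the calls are not independent of it. Residue 557 passed the filter on low counts only through High-abc.

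This result depended on single libraries. No residue was called without High-abc replicate 2, either High-Leu558 library or WT-Leu558-in-High-abc replicate 1. Without High-abc replicate 3 only residue 569 was called, and without WT replicate 1 or WT-Leu558-in-High-abc replicate 2 residues 557 and 569 were. Residue 564 alone lost its call, at edgeR adjusted p-values from 0.0565 to 0.0904, without High-abc replicate 4 or 5, without WT replicate 4 or 5, with the ends of the protein kept, and with TMM factors computed without NBD1. In each fit that tested them the log2 changes kept their sign: they ran from 2.55 to 3.15 at residue 569, from 1.46 to 2.17 at 561 and from -2.73 to -1.54 at 564.

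**Figure D3:**
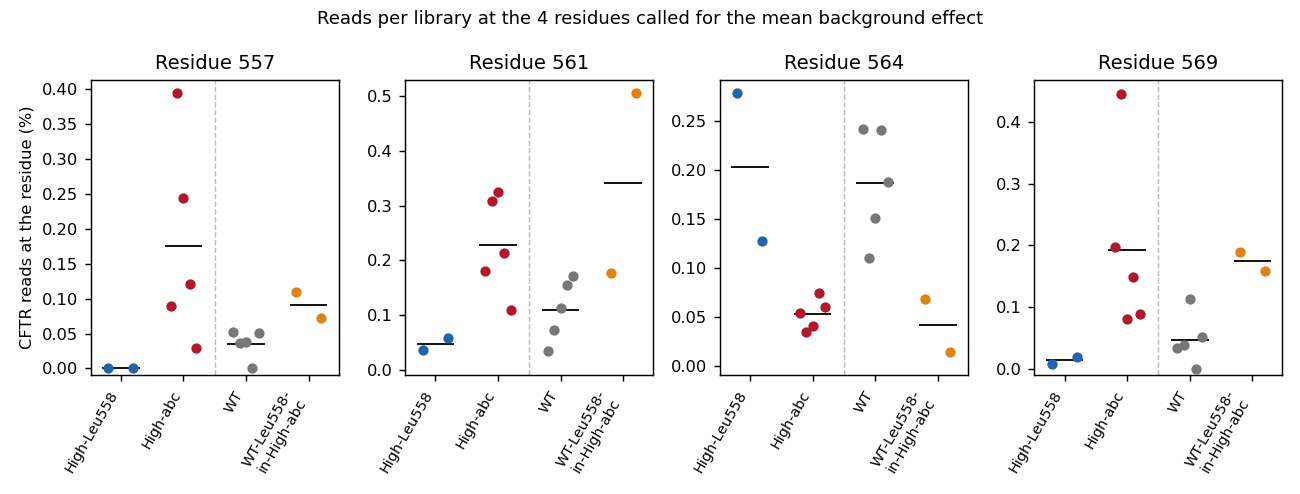
Percent of CFTR reads (vertical axes, each with its own scale) at residues 557, 561, 564 and 569 in each library of the 4 constructs; points are libraries, black lines group means, and the dashed line separates constructs with the replaced Leu558 codon (left) from those with the native codon (right). Constructs with the High-abc background are higher on average than their partner at 557, 561 and 569 and lower at 564 on both sides of the dashed line.

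Without a filter on low counts the mean effect called residues 557, 569, 563 and 570, while 561 and 564 lost their call (edgeR adjusted p = 0.205 and 0.244). Residues 563 and 570 are named here after their values were seen. Residue 563 held 33 reads in High-abc, in all 5 libraries, and 0 in High-Leu558. Its mean share in High-abc was 3.27 times the High-Leu558 floor of 3 reads per library. That ratio leaves out the spread in High-abc, where replicate 3 had 1 read. Its level was 0.0266% ± 0.0238 in WT (SD, n = 5), while WT-Leu558-in-High-abc had 0.101% ± 0.0197 (SD, n = 2). Residue 570 held 3 reads in High-abc, all in replicate 4, and 6 in High-Leu558, too few to read a difference. With the native codon it held 80 reads in WT, all in replicates 1 (0.260%) and 2 (0.199%), and 0 in WT-Leu558-in-High-abc, so its call came from those libraries.

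Whether the background effect itself differs between the replaced and the native Leu558 codon was tested as an interaction. It called 0 of 314 residues and 0 of 144 windows in edgeR (0% each). Before adjustment 18 residues and 6 windows had an edgeR p under 0.05. DESeq2 also called 0 and 0, with 22 and 8 before adjustment. The lowest p was at residue 953 (log2 difference 3.88, SE 1.20, edgeR adjusted p = 0.643). At residue 557 the difference was 5.71 (SE 2.08, edgeR adjusted p = 0.643), so the larger change there with the replaced codon was not called different. At residues 564, 582 and 527 the log2 differences were 0.14 (SE 1.00), 0.12 (SE 1.04) and -0.11 (SE 1.41).

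Windows of 10 residues gave no call in High-abc against High-Leu558 (0 of 144, 0%, in edgeR and in DESeq2). Before adjustment 5 windows (3.47%) had an edgeR p under 0.05, and 6 had a DESeq2 p under 0.05. The lowest p belonged to the window from 561 to 570, which held 0.899% ± 0.390 in High-abc (SD, n = 5) and 0.439% ± 0.0911 in High-Leu558 (SD, n = 2). Its log2 change was 1.14 (SE 0.42, edgeR adjusted p = 0.907), and High-abc replicate 5, at 0.469%, lay below High-Leu558 replicate 1, at 0.503%. The window of Leu558, 551 to 560, held 0.499% ± 0.237 and 0.261% ± 0.0913, with a log2 change of 0.99 (SE 0.46). Windows 621 to 630 and 631 to 640 had log2 changes of 0.97 (SE 0.44) and 0.73 (SE 0.38), and in the latter every High-abc library was above both High-Leu558 libraries.

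Among windows with lower values in High-abc, those of lowest p were 831 to 840, 1041 to 1050, 691 to 700 and 1361 to 1370. The window from 831 to 840, at the end of the regulatory region, held between 0.206% and 0.623% in High-abc and 0.652% and 0.797% in High-Leu558 (log2 change -0.83, SE 0.35). The window from 1041 to 1050, in the second membrane domain, held between 0.377% and 0.688% against 0.810% and 0.935% (log2 change -0.64, SE 0.31). Windows 691 to 700 and 1361 to 1370 had log2 changes of -0.73 (SE 0.47) and -0.50 (SE 0.32) with overlap. All of these had an edgeR adjusted p of 0.907. For the High-abc background with the native codon the log2 change was 0.19 (SE 0.38) at 561 to 570, -0.47 (SE 0.41) at 551 to 560, where WT has its reads at Leu558, 0.43 (SE 0.35) at 831 to 840 and -0.34 (SE 0.32) at 1041 to 1050. The window from 561 to 570 sums residues of both signs, 561 and 569 with more reads and 564 with fewer in High-abc.

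Over whole regions, the NBD1 last part (561 to 650) and the end of the protein differed without overlap between libraries. Regions end at rounded residue numbers and only approximate the domains they are named for. The NBD1 last part held 7.13% ± 0.265 of the reads in residues 21 to 1460 in High-abc (SD, n = 5), between 6.82% and 7.51%, and 5.18% and 5.91% in High-Leu558. The difference of 1.58 percentage points (SE 0.38) had an exact permutation p of 0.0952, the smallest possible, and 0.381 after Benjamini-Hochberg adjustment over 8 regions. The NBD2 and C-terminal region (1201 to 1460) held 14.4% ± 1.93 in High-abc (SD, n = 5), between 11.0% and 15.9%, and 16.7% and 17.4% in High-Leu558, with the same p and adjusted p and a difference of -2.65 points (SE 0.92). With the native codon the libraries overlapped in both regions. The NBD1 last part held 6.70% ± 0.796 in WT (SD, n = 5), and WT-Leu558-in-High-abc held 6.83% ± 0.682 (SD, n = 2). The last region held 14.9% ± 2.42 and 14.9% ± 0.777.

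In the other regions the libraries of the groups overlapped. The NBD1 alpha-subdomain held 4.40% ± 1.39 in High-abc (SD, n = 5), with 6.76% in replicate 3, and 3.29% ± 0.202 in High-Leu558 (SD, n = 2), with an exact permutation p of 0.190. The N-terminal region held 6.83% ± 1.72 and 5.58% ± 0.835, the NBD1 first part 5.68% ± 0.915 and 6.44% ± 0.403, and the regulatory region 12.8% ± 0.918 and 13.8% ± 0.889. The membrane domains differed by -0.16 points (SE 1.09) and 0.61 points (SE 1.94), the first and the second in that order. Exact permutation p-values over these 6 regions ran from 0.190 to 1.

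**Figure D4:**
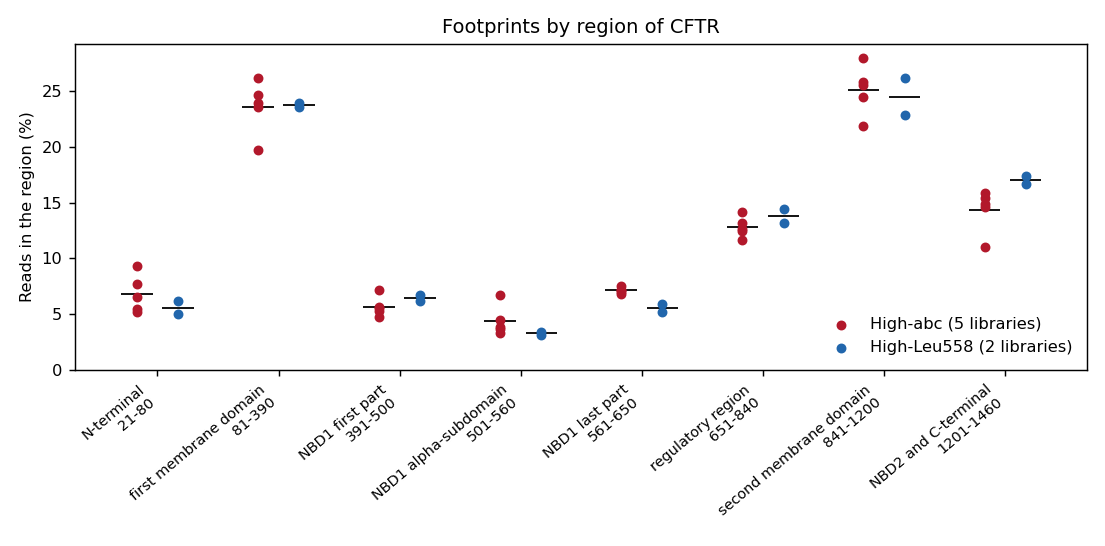
Percent of reads in residues 21 to 1460 (vertical axis) that fell in each of 8 regions (horizontal axis, with residue numbers) in 5 High-abc and 2 High-Leu558 libraries; points are libraries and black lines group means. The groups separate only in the NBD1 last part, where High-abc is higher, and in the NBD2 and C-terminal region, where it is lower.

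Around Leu558 the mean occupancy of residues 548 to 568 was 1.52 times as high in High-abc as in High-Leu558 (log2 difference 0.60, SE 0.42, exact permutation p = 0.190). Read density over the 30 residues upstream of Leu558, divided by that over the 30 downstream, differed by 0.03 on the log2 scale (SE 0.27, exact permutation p = 1). In High-abc that log2 ratio ran from -0.84 (replicate 2) to 0.58 (replicate 5), and in High-Leu558 it was -0.01 and -0.17. Polarity, which is below 0 when reads lie towards the start of the frame and above 0 when they lie towards its end, was -0.0634 ± 0.0388 in High-abc (SD, n = 5) and -0.0287 ± 0.0122 in High-Leu558 (SD, n = 2), with an exact permutation p of 0.286.

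The most occupied residues of the protein were largely, but not wholly, common to both constructs. The 20 most occupied WT residues, chosen in libraries outside the comparison, held 18.0% ± 2.93 of reads in High-abc (SD, n = 5) and 15.0% ± 0.422 in High-Leu558 (SD, n = 2), with an exact permutation p of 0.190. High-abc replicate 2, the library with the most concentrated reads, held 22.9%, and the other 4 between 15.1% and 17.6%. All 20 were tested: 13 had a log2 change above 0 and 7 below, none was called, and the median log2 change was 0.40, beside 0.05 over all 314 residues. The highest were 1.61 at residue 666 (SE 0.82, edgeR adjusted p = 0.981) and 1.51 at residue 320 (edgeR adjusted p = 0.981). Each group's own 20 most occupied residues had 14 in common, 70% of each list. Of the 20 WT residues, 18 were in the list of High-abc and 14 in that of High-Leu558. The lists rest on 5 and 2 libraries, so the counts are not on equal terms. Leu558 is among the 20 WT residues and in neither list (rank 816 in High-abc and 978 in High-Leu558).

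Residue 1308, towards the end of the chain, ranked first in both constructs. Its occupancy was 55.2, 28.3, 27.6, 51.2 and 42.2 in High-abc replicates 1 to 5 and 56.0 and 46.5 in High-Leu558, so the groups overlapped (log2 change -0.28, SE 0.47). Residue 948, in the second membrane domain, ranked second in both, with 26.9 ± 8.87 in High-abc (SD, n = 5) and 17.7 ± 3.64 in High-Leu558 (SD, n = 2; log2 change 0.61, SE 0.53). Residue 732 of the regulatory region had 17.5 ± 6.86 and 17.2 ± 3.92, and residue 375 of the first membrane domain 12.8 ± 4.82 and 15.2 ± 6.16. Residue 1011 of the second membrane domain had the largest log2 change among the 10 most occupied residues, 18.3 ± 11.8 against 7.17 ± 4.95, with 37.8 in High-abc replicate 2 and 10.7 and 3.67 in the High-Leu558 libraries (log2 change 1.41, SE 0.68). Residues 1075, 608, 26, 388 and 101 had log2 changes of 0.61, -0.35, 0.00, -0.04 and 0.94. All 10 had an edgeR adjusted p of at least 0.981, and in all 10 the libraries of the groups overlapped.

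**Figure D5:**
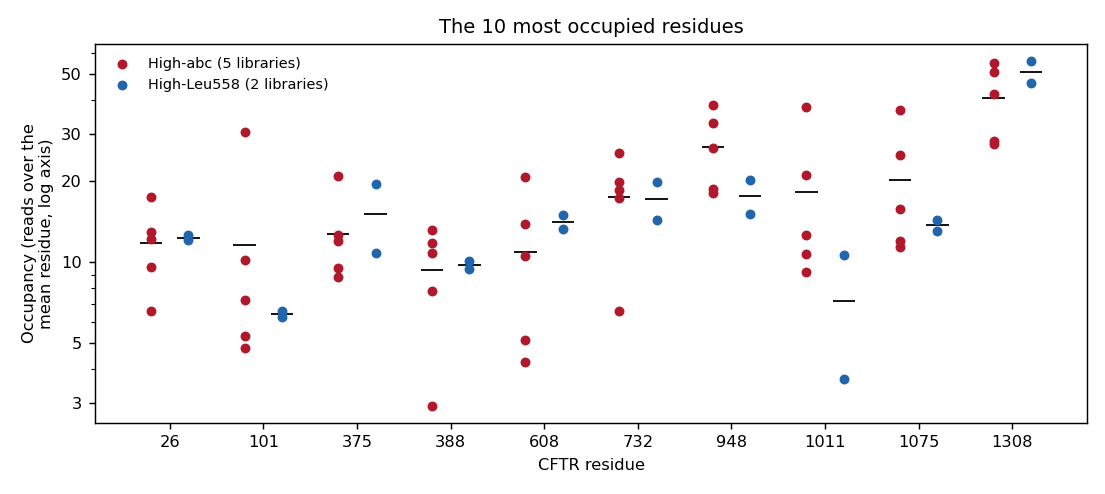
Occupancy (reads over the library's mean residue, log axis) of the 10 residues with the highest occupancy, in order of residue number, in 5 High-abc and 2 High-Leu558 libraries; points are libraries and black lines group means. The points of the groups overlap at every residue, with residue 1308 highest, and at residue 1011 High-Leu558 replicate 2 lies at 3.67.

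Over all 1440 residues, libraries of different constructs were about as alike as those of the same construct. Spearman's rho over the residues of a pair of libraries is given as a description, since residues are no replicates. Its size also rises with depth. Among High-abc libraries it ran from 0.378 to 0.707 (10 pairs), and between the High-Leu558 libraries it was 0.683. Between the groups it ran from 0.407 to 0.786 (10 pairs). The mean within groups was 0.533 and the mean between them 0.570, so libraries of the same construct were not more alike (difference -0.04, one-sided exact permutation p = 0.667, with 0.0476 the smallest possible).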

How the data were processed

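The deposited tables list CFTR residues with their read counts and, per the file headers, those counts as a percent of the CFTR-mapped total. Deposited counts are whole numbers, and each deposited percent matched its count over the library's total within 0.0005. A residue missing from a table counted as 0 reads. HISAT2 and hg38 appear in the submitters' processing notes. How a read was assigned to a residue, and to which sequence it was mapped, was not given in the sources used here.

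Dropping 20 residues at either end left 1440. Reads per residue and per 10-residue window went into edgeR 4.0.16 (with limma 3.58.1, in R 4.3.3), using TMM, filterByExpr and quasi-likelihood tests, with a term for each group over the 14 libraries and Benjamini-Hochberg adjustment at 0.05. The 314 residues tested held 62.8% of the 7 libraries' reads; the 144 windows were all tested. Variation among same-group libraries, counting error aside, was 53.4% for residues and 31.2% for windows. Standard errors were log2 change over root F. Single values per library were tested by exact permutation (21 splits; Python 3.11.15, scipy 1.17.1). Scripts were tested on simulated data.

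Named were Leu558 with its neighbours and window, called residues and windows (at most 10 a direction, filled to 6 and 4 by lowest p), the 10 most occupied residues and the 8 regions. Members and lists were chosen with earlier results of these data known. Alternatives varied scaling, tool (DESeq2 1.42.0), filter, windows, ends, libraries and a replicate block. Occupancy by amino acid was planned but not run, as no protein sequence was used here.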

Additional observations from a re-analysis of the deposited data

Results flagged for a closer look

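In 50 sets of values from the 5 High-abc libraries, Dixon's test set 3 values apart, from 2 libraries, and it does so for about 1 set in 20 by chance. High-abc replicate 2 had 11.0% of its reads between residues 1201 and 1460 (NBD2 and the C-terminus), against 14.6% to 15.9% in the other 4. The same library held 2.04% of its CFTR reads at residue 101, against 0.325% to 0.688%. High-abc replicate 4 held 0.0279% of its reads at residue 570 and the others 0%, a difference of 3 reads.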

How the results depend on the processing

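Counts of residues. High-abc against High-Leu558 gave 1 residue; it gave 0 with library totals, 0 when features needed 20 reads on average (which drops residue 557), 2 in a fit of only these groups and 0 without both libraries numbered 2, an alternative chosen after seeing the data. Leaving out 1 library gave between 0 and 1. The difference of background effects gave 1 residue (822) without a filter. The mean background effect gave 0 residues when features needed 20 reads on average, 4 without a filter (residues 557, 563, 569 and 570) and between 0 and 5 when 1 library was left out.

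The replicate block. High-abc and High-Leu558 share numbers 1 and 2, too few pairs for a check. Deviations of their same-numbered libraries correlated at 0.05 and 0.03. High-Leu558 replicate 1 was closest to High-abc replicate 4 (r = 0.79, against 0.50 for High-abc replicate 1). High-abc and WT share numbers 1 to 5. At residue 1308 replicates 1 to 5 held 3.73%, 1.88%, 1.87%, 3.46% and 2.84% in High-abc. In WT they held 3.67%, 1.87%, 1.28%, 3.30% and 2.23%, in the same order of size. At residue 375 the orders differed. Whether numbers pair these libraries was not tested, and the main fit has no term for it. With the replicate block, High-abc against High-Leu558 gave 24 of 314 residues and 22 of 144 windows, or 8 residues and 0 windows in a fit of only these groups. The difference gave 42 and 39, and the mean effect 6 residues and 1 window. The 24 residues ran from 42 to 1227 and were not gathered in NBD1, where 557, 569, 595, 608 and 629 were called. Residues 320 and 666 had the lowest adjusted p. Residues 527, 535, 561, 564 and 582 were not among the 24, though the mean effect called 561, 564 and 582.

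Directions. At residue 559 the log2 change was 0.00 without a filter (-0.0017), -0.58 with the replicate block and -0.32 without both libraries numbered 2; leaving out 1 library it ran from -0.54 to 1.21. At Leu558 it was -0.77 without both libraries numbered 2 and ran from -0.38 to 4.37, and its log2 occupancy difference from -0.24 to 2.85. Window 691 to 700 was 0.0766 without both libraries numbered 2. With the most covered 1% of residues left out, the first membrane domain differed by 0.0115 points and the second by -0.69; leaving out 1 library they ran from -0.81 to 0.81 and from -1.05 to 2.28, and the density ratio from -0.13 to 0.22. The cause was not tested beyond the fewer libraries or residues used.

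Occupancy by amino acid was not run. A mean of 1.66 to 7.27 reads per residue and 2 High-Leu558 libraries limit residue calls to large changes.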
